A study of Mus musculus with 8 samples.

Results

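The 9 genes described here encode subunits of potassium channels of the heart: Kcnj2, Kcnj5, Kcnj11, Kcnd2, Kcnd3, Kcnip2, Kcnq1, Kcnh2 and Kcna5. They were taken by gene symbol, by a rule that uses no values, although earlier results of these data were known by then. All 9 were found among the 11704 genes listed. RNA sequencing gave messenger RNA levels in 8 samples of mouse heart, called hearts here and numbered as labelled, although the labels do not state that each came from a separate animal. The vector, an adeno-associated virus (AAV) whose serotype, 9, infects heart muscle well, had been injected under the skin of newborn mice. In 4 samples (AAV-FGF17) the virus carried mouse Fgf17, a secreted fibroblast growth factor, and in 4 it was the control vector, so both groups were exposed to virus. Hearts were taken at 8 to 10 weeks of age. The strain, the sex, the promoter of the vector and the chambers sampled are not given in the sources used here. The samples' labels describe transduction alone, while the column headers say sham, which leaves any operation on these hearts unknown.

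Potassium channels let potassium leave the cell and so return its membrane to the resting voltage after each beat. Inward rectifiers hold the resting voltage, channels of the transient outward current begin the return, and delayed rectifiers complete it. The adult mouse ventricle leans on fast currents, carried by Kv4 and Kv1.5 channels among others, whereas the human ventricle leans on the slower currents carried by the products of KCNH2 and KCNQ1.

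All but Kcnip2 encode a pore-forming subunit, and the pore holds a selectivity filter of 5 amino acids through which potassium passes. The coding sequence of the filter is shown for 7 of the genes because it is the feature that these genes share across otherwise different families. Each stretch of 33 bases runs 5′ to 3′ on the coding strand in the GENCODE M21 transcripts (GRCm38), and capitals mark the 15 bases that encode the filter.
Kcnj2: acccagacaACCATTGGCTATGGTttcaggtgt
Kcnj5: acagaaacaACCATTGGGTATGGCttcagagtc
Kcnj11: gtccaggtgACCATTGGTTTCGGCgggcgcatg
Kcnd2: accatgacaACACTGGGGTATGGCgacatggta
Kcnd3: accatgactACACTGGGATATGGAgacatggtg
Kcnh2: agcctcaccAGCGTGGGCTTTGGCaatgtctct
Kcna5: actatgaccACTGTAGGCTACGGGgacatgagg
The stretches lie at chr11:111072198-111072230 (Kcnj2, exon 2, plus strand), chr9:32322550-32322582 (Kcnj5, exon 2, minus), chr7:46099487-46099519 (Kcnj11, exon 1, minus), chr5:24325546-24325578 (Kcnh2, exon 7, minus) and chr6:126533736-126533768 (Kcna5, exon 1, minus). Of the 15 filter bases, 7 are identical in all 7 genes shown. Kcnd2 and Kcnd3 are the closest pair, with 29 of 33 bases identical, and Kcnj2 and Kcnj5 share 24. The fourth filter codon is TAT or TAC in 5 of them, TTC in Kcnj11 and TTT in Kcnh2. An intron splits the stretch of Kcnd2 between exons 1 (chr6:21217397-21217413) and 2 (chr6:21714135-21714150), and that of Kcnd3 between exons 2 (chr3:105459905-105459921) and 3 (chr3:105658611-105658626), all on the plus strand. Kcnip2, a calcium-binding accessory subunit, has no pore and no such stretch.

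Values are FPKM, which correct a gene's fragments for transcript length and library size, so levels can be set beside each other between genes. How many reads lie behind each value is unknown. Fgf17 stood at 69.0 to 173 FPKM in AAV-FGF17 hearts and at 0.560 to 9.86 FPKM in control hearts, with no overlap. Its log2 change as fitted was 4.57, yet its limma adjusted p was 0.248, so the supplied gene itself did not pass the test across all genes. Control hearts 2 and 3 stood apart from the other hearts. Mitochondrially encoded transcripts made up 44.5% and 30.9% of their summed FPKM, against 62.8% to 66.9% in the other 6, and they lay at 22.0 and 44.6 on a first principal component on which the others lay at -19.4 to -7.55. FPKM divides by the library's total, and the median tested gene differed by -0.12 (log2) between the groups. Log2 changes and their intervals are therefore given relative to that gene unless said to be as fitted. The limma p-values beside them test the change as fitted, not the relative change. Changes are also given without control hearts 2 and 3. That leaves control hearts 1 and 4, the most similar pair of libraries, so the intervals of that fit may be too narrow. Fgf17 was also higher in control hearts 1 and 4, at 9.59 and 9.86 FPKM against 1.43 and 0.560 FPKM in hearts 2 and 3. All 8 cardiomyocyte markers looked for were listed, from 11578 to 12552 FPKM in sum in AAV-FGF17 hearts and from 11492 to 24036 FPKM in control hearts, where hearts 2 and 3 were the highest. In whole hearts fewer cells of a type and less RNA per cell cannot be told apart.

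None of the 9 genes differed between AAV-FGF17 and control hearts by the test across all genes. With limma on log2(FPKM + 1), the adjusted p of 0 of 9 fell under 0.05 in either direction, beside a background of 0% of 10025 tested genes each way. Their adjusted p ran from 0.495 to 0.906. Their median log2 change was -0.12 relative to the median gene, with 6 genes below that gene and 3 above it. At an unadjusted p under 0.05, 1 of 9 was lower (Kcnh2) and 0 were higher, beside 7.98% lower and 1.36% higher of all tested genes. In 0 of 9 did the groups fail to overlap, while a complete separation of the groups was found in 0.998% of tested genes with AAV-FGF17 higher and in 4.64% with it lower. Without control hearts 2 and 3, 0 of 9 were called, beside 0.0508% of 9852 genes higher and 0.0102% lower, and the members' median was -0.06. Over all tested genes, the 95% interval of a gene's log2 change reached a median of 0.33 to each side. Since Fgf17 was not called either, a count of 0 of 9 does not show that the channel genes were alike in the groups.

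**Figure D1:**
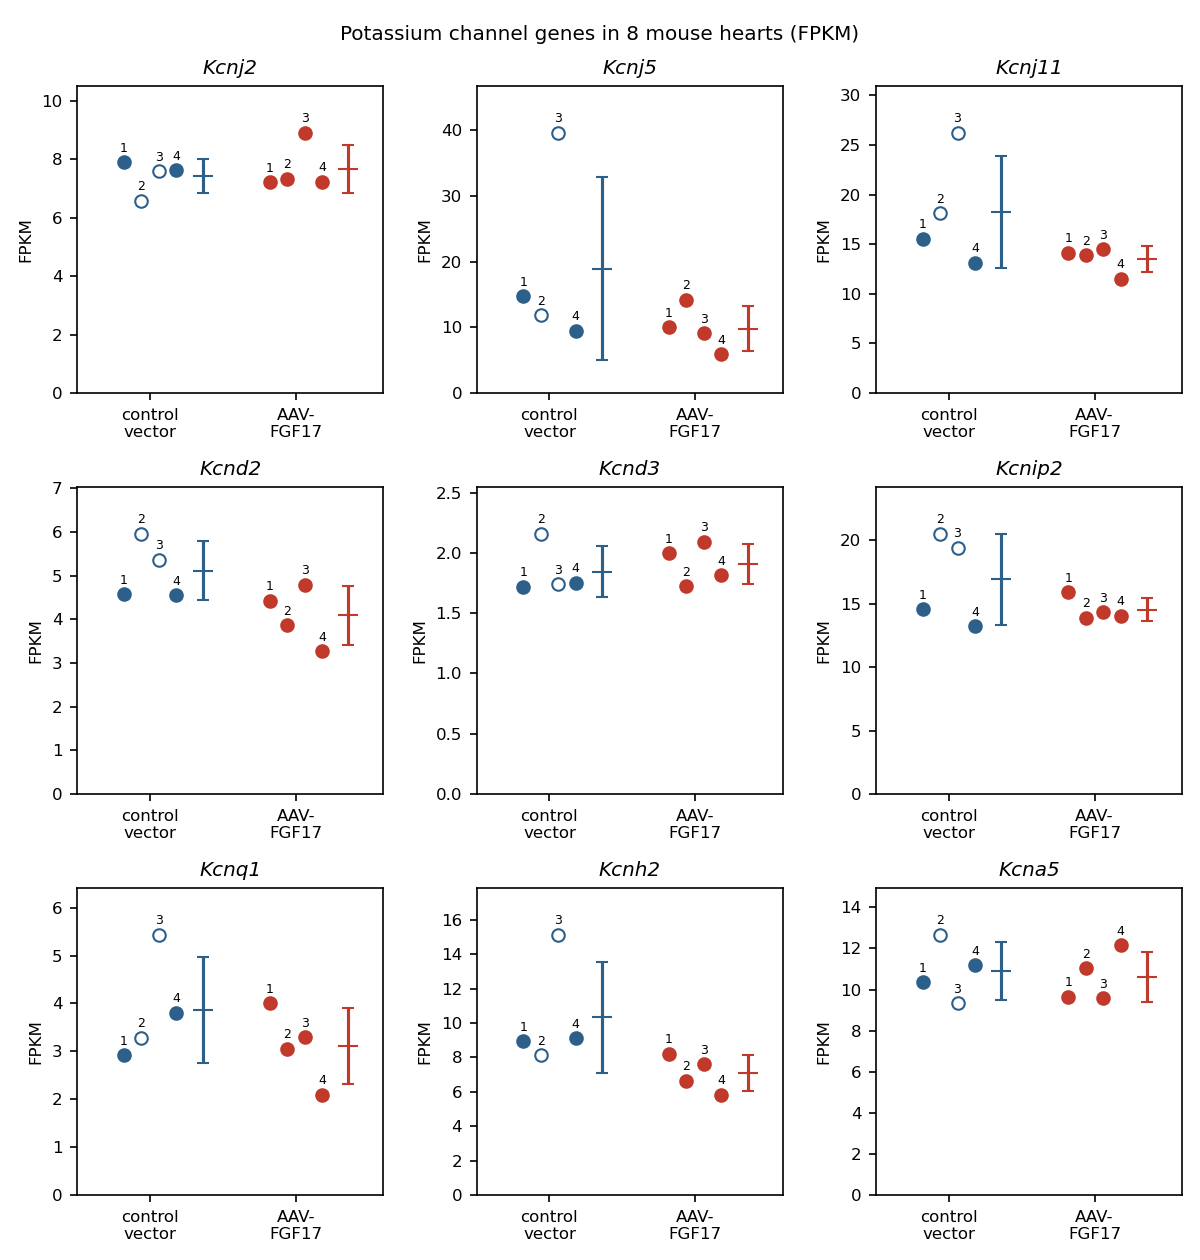
FPKM of the 9 potassium channel genes in each of 4 control and 4 AAV-FGF17 hearts. Numbers are the hearts as labelled, open circles are control hearts 2 and 3, and bars show the mean ± SD of 4 hearts. The groups overlap in every panel, and control heart 3 stands highest for Kcnj5 (39.6 FPKM), Kcnj11 (26.2), Kcnq1 (5.43) and Kcnh2 (15.1).

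Ordered by the mean over 8 hearts, Kcnj11 (15.9 ± 4.59 FPKM, SD), Kcnip2 (15.7 ± 2.73) and Kcnj5 (14.4 ± 10.6) were the most abundant. Kcna5 (10.7 ± 1.23), Kcnh2 (8.70 ± 2.82) and Kcnj2 (7.55 ± 0.675) followed, and Kcnd2 (4.60 ± 0.8293), Kcnq1 (3.49 ± 0.978) and Kcnd3 (1.88 ± 0.179) were the lowest. The first 3 genes were close to each other: Kcnj11 exceeded Kcnip2 in 3 of 8 hearts and Kcnip2 exceeded Kcnj5 in 5. Kcna5 was exceeded by Kcnip2 in 8 of 8 hearts, by Kcnj11 in 7 and by Kcnj5 in 4. Kcnh2 exceeded Kcnj2 in 5 of 8 hearts, which leaves those neighbours within their spread too. The order was clearer below, since Kcnj2 exceeded Kcnd2 and Kcnq1 exceeded Kcnd3 in 8 of 8 hearts, and Kcnd2 exceeded Kcnq1 in 7. The genes differed widely in how evenly they were expressed. Across hearts the highest value was 1.25 times the lowest for Kcnd3, 1.35 times for Kcnj2, 1.36 times for Kcna5 and 6.75 times for Kcnj5.

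Kcnj2 (ENSMUSG00000041695.2, chr11:111066164-111076821, plus strand) encodes Kir2.1, the main pore of the inward rectifier current that holds the resting voltage. It measured 7.21, 7.33, 8.91 and 7.23 FPKM in AAV-FGF17 hearts 1 to 4 and 7.91, 6.58, 7.60 and 7.64 FPKM in control hearts 1 to 4. All but AAV-FGF17 heart 3 lay within 6.58 to 7.91 FPKM, so the groups overlapped. Its mean was 7.67 ± 0.827 FPKM (SD, n = 4) with AAV-FGF17 and 7.43 ± 0.583 (n = 4) with control vector, a log2 change of 0.16 relative to the median gene (95% interval -0.09 to 0.40, limma adjusted p = 0.875). The change as fitted, which that p tests, was 0.04. Without control hearts 2 and 3 the relative change was 0.00 (-0.26 to 0.26).

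Kcnj5 (ENSMUSG00000032034.6, chr9:32314707-32344350, minus strand) encodes Kir3.4, which with Kir3.1, the product of Kcnj3, forms the acetylcholine-activated channel that slows the pacemaker and shortens the atrial action potential. It measured 10.00, 14.2, 9.10 and 5.87 FPKM in AAV-FGF17 hearts and 14.8, 11.8, 39.6 and 9.49 FPKM in control hearts. Control heart 3 lay 2.68 times above the next highest heart, AAV-FGF17 heart 4 was the lowest, and the other 6 were mixed. The change of -0.61 was the farthest from 0 among the 9 genes, with an interval of -1.49 to 0.28 (limma adjusted p = 0.496), and it was -0.23 without control heart 3 and -0.29 (-0.997 to 0.42) without control hearts 2 and 3. Kcnj3 measured 4.60, 3.49, 4.92 and 1.41 FPKM in AAV-FGF17 hearts and 5.94, 4.58, 9.77 and 5.49 FPKM in control hearts. Its highest and lowest hearts were the same as those of Kcnj5, and the groups overlapped. Its change was -0.61 (-1.28 to 0.05, limma adjusted p = 0.495) and -0.60 without control hearts 2 and 3.

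Kcnj11 (ENSMUSG00000096146.2, chr7:46093953-46100764, minus strand) encodes Kir6.2, the pore of the channel that opens when ATP falls. It measured 14.1, 13.9, 14.5 and 11.5 FPKM in AAV-FGF17 hearts and 15.6, 18.1, 26.2 and 13.2 FPKM in control hearts. Control hearts 2 and 3 were the highest, and control heart 4 lay below 3 of the AAV-FGF17 hearts. The change was -0.25 (-0.67 to 0.17, limma adjusted p = 0.495) and -0.06 without control hearts 2 and 3. Abcc9, which encodes the regulatory subunit SUR2, stood at 31.6 ± 5.41 FPKM (n = 4) against 28.0 ± 4.24 (n = 4). Its change was 0.28 (-0.07 to 0.63), and 0.04 (-0.35 to 0.43) without control hearts 2 and 3. Abcc9 was also among the pericyte markers, so its level in whole hearts cannot be assigned to heart muscle cells alone.

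The transient outward current is carried by Kv4.2 and Kv4.3, encoded by Kcnd2 and Kcnd3, with KChIP2, encoded by Kcnip2, as their accessory subunit. Kcnd2 (ENSMUSG00000060882.5, chr6:21215503-21729805, plus strand) measured 4.43, 3.86, 4.80 and 3.28 FPKM in AAV-FGF17 hearts and 4.58, 5.96, 5.37 and 4.55 FPKM in control hearts. Only AAV-FGF17 heart 3 reached into the control range. The change was -0.15 (-0.45 to 0.15, limma adjusted p = 0.495) and -0.12 without control hearts 2 and 3.

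Kcnd3 (ENSMUSG00000040896.16, chr3:105452330-105674002, plus strand) measured 1.996, 1.73, 2.09 and 1.81 FPKM in AAV-FGF17 hearts and 1.72, 2.16, 1.74 and 1.75 FPKM in control hearts. Control heart 2 was the highest of the 8 and the other 3 controls were close to the lowest AAV-FGF17 heart. The change was 0.15 (-0.08 to 0.38, limma adjusted p = 0.888) and 0.11 without control hearts 2 and 3. As fitted, the change that this p tests was 0.03. An antisense gene, Kcnd3os, overlaps an exon of Kcnd3, and whether counting used the strand is not given in the sources used here, so their reads cannot be told apart.

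Kcnip2 (ENSMUSG00000025221.15, chr19:45791839-45816061, minus strand) measured 15.9, 13.9, 14.3 and 14.1 FPKM in AAV-FGF17 hearts and 14.6, 20.5, 19.4 and 13.2 FPKM in control hearts. The highest values were those of control hearts 2 and 3, and the other 6 hearts lay between 13.2 and 15.9 FPKM. The change was -0.07 (-0.40 to 0.26, limma adjusted p = 0.559) and turned to 0.08 without control hearts 2 and 3.

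Kcnq1 (ENSMUSG00000009545.14, chr7:143106362-143427042, plus strand) encodes Kv7.1, the pore of the slow delayed rectifier. It measured 4.01, 3.05, 3.29 and 2.09 FPKM in AAV-FGF17 hearts and 2.92, 3.29, 5.43 and 3.80 FPKM in control hearts. The highest heart was control heart 3 and the lowest AAV-FGF17 heart 4, with the others mixed. The change was -0.12 (-0.55 to 0.31, limma adjusted p = 0.566) and -0.08 without control hearts 2 and 3. The antisense genes Kcnq1ot1 and 4933417O13Rik overlap its exons, with the same limit as for Kcnd3.

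Kcnh2 (ENSMUSG00000038319.14, chr5:24319589-24351604, minus strand) encodes ERG1, the pore of the rapid delayed rectifier. It measured 8.21, 6.65, 7.60 and 5.83 FPKM in AAV-FGF17 hearts and 8.95, 8.13, 15.1 and 9.11 FPKM in control hearts. AAV-FGF17 heart 1 lay just above control heart 2, and otherwise every AAV-FGF17 heart lay below every control heart. The log2 change as fitted was -0.46 ± 0.19 (SE), with an unadjusted p of 0.0333 and an adjusted p of 0.495 by limma. Relative to the median gene it was -0.34 (-0.76 to 0.07), and -0.30 (-0.61 to 0.01) without control hearts 2 and 3.

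Kcna5 (ENSMUSG00000045534.4, chr6:126532551-126535412, minus strand) encodes Kv1.5, the pore of an ultrarapid delayed rectifier. It measured 9.65, 11.03, 9.59 and 12.2 FPKM in AAV-FGF17 hearts and 10.4, 12.7, 9.33 and 11.2 FPKM in control hearts. Control heart 3, the highest for 4 of the other genes, was the lowest here. The change was 0.09 (-0.19 to 0.36, limma adjusted p = 0.906) and -0.00 without control hearts 2 and 3.

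**Figure D2:**
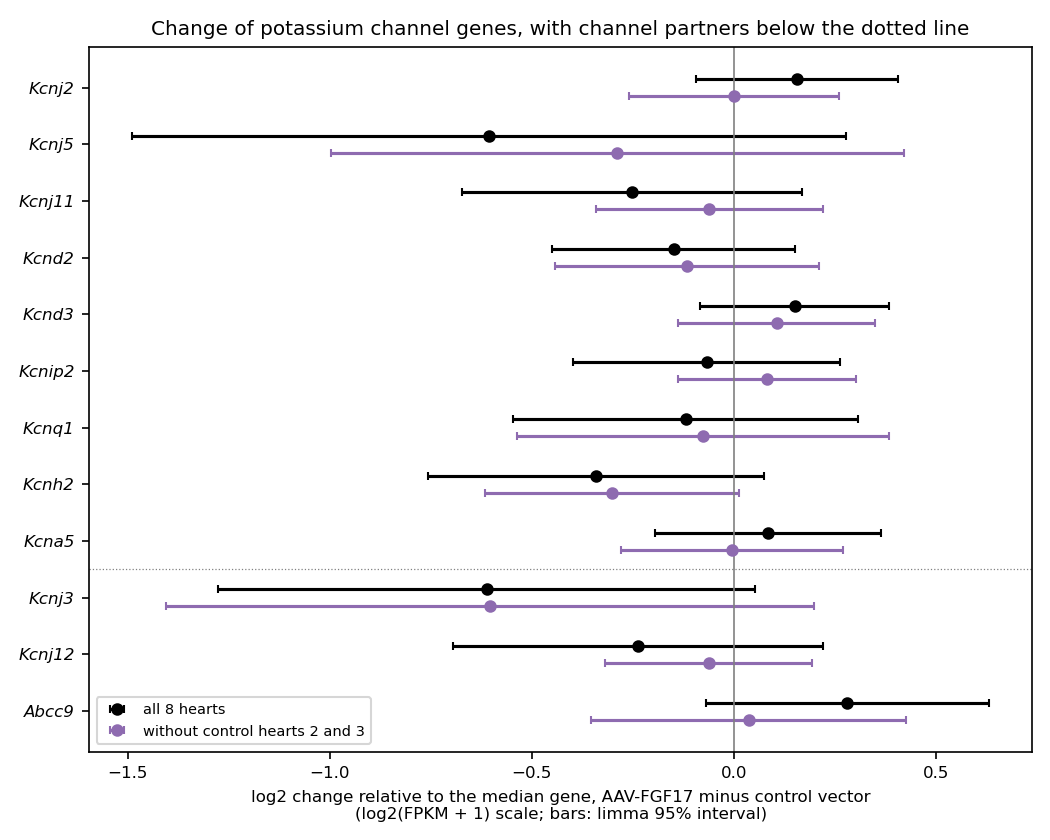
Log2 change of the 9 genes and, below the dotted line, of Kcnj3, Kcnj12 and Abcc9, AAV-FGF17 minus control vector on the log2(FPKM + 1) scale relative to the median gene. Bars are limma 95% intervals moved by the median gene's change, with no error added for it. All 8 hearts are in black and the fit without control hearts 2 and 3 in purple. With all 8 hearts every moved interval includes 0, and Kcnj5 has the widest, from -1.49 to 0.28. As fitted, before the move, the intervals of Kcnh2 (-0.88 to -0.04) and Kcnj3 (-1.39 to -0.06) lie below 0.

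Control hearts 2 and 3 were each the highest of the 8 for 4 of the 9 genes, and AAV-FGF17 heart 4 was the lowest for 5. The summed FPKM of the 9 genes was 129.8 in control heart 3, 63.9 in AAV-FGF17 heart 4 and 73.9 to 89.2 in the other 6. Removing each library's median left control heart 3 high for Kcnj5, Kcnh2, Kcnj11 and Kcnq1 and low for Kcna5 and Kcnd3. The part of the lower mitochondrial share of that heart in these values was not tested.

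**Figure D3:**
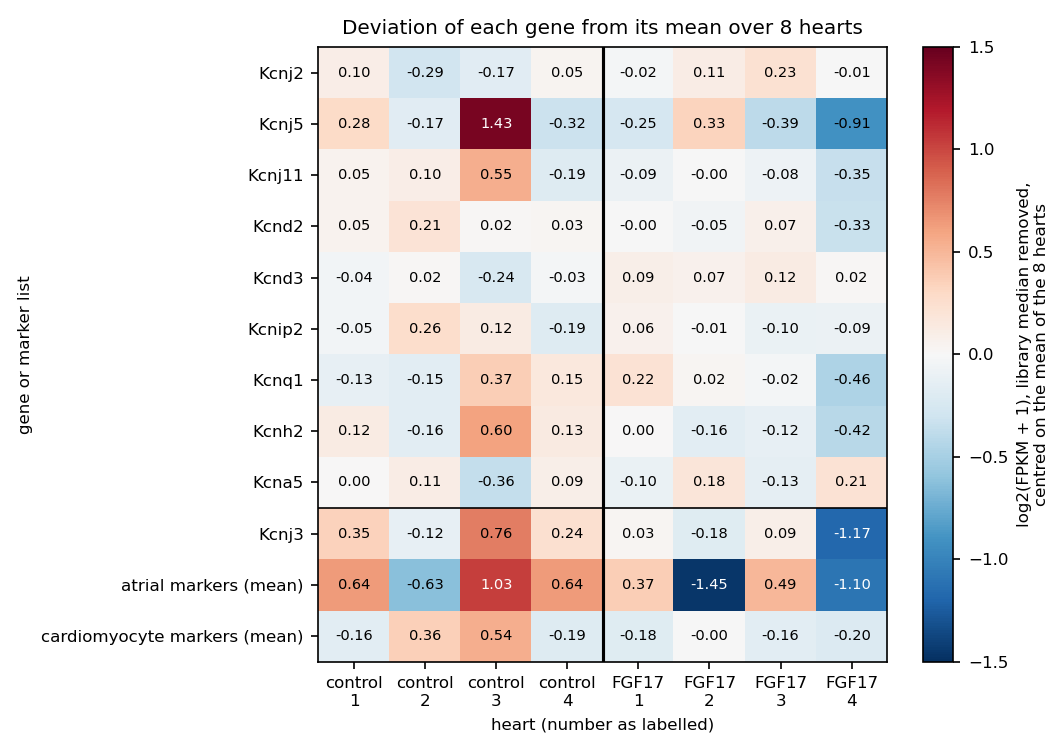
Deviation of each gene in each heart from its mean over 8 hearts, as log2(FPKM + 1) with the library's median removed, with Kcnj3 and the mean of 8 atrial and 8 cardiomyocyte markers in the lowest rows. Red is above the mean and blue below it. Control heart 3 is at 1.43 for Kcnj5 and -0.36 for Kcna5, and AAV-FGF17 heart 4 is at -0.91 for Kcnj5.

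Ratios of 2 genes within a heart do not depend on the library's total, and 7 ratios between subunits or related pores were compared, of which 6 are given here. The ratio of Kcnd3 to Kcnd2, the transient outward pores, was 0.451, 0.447, 0.436 and 0.554 in AAV-FGF17 hearts and 0.376, 0.362, 0.325 and 0.386 in control hearts. Every AAV-FGF17 heart lay above every control heart, with the antisense overlap of Kcnd3 as a limit. Among single tested genes, complete separation was found in 0.998% with AAV-FGF17 higher and in 4.64% with it lower. No such share is given for ratios of 2 genes. The log2 difference was 0.38, with a two-sided exact permutation p of 0.0286, the smallest possible with 4 against 4. Adjusted over the 7 ratios, that permutation p was 0.20 and did not pass. A lone ratio at the smallest p could not have reached an adjusted p under 0.05, so the adjusted value decides nothing here. Without control hearts 2 and 3 the log2 difference was 0.30, with an exact permutation p of 0.0667, the smallest that design allows.

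The other 5 ratios given here overlapped between the groups. The ratio of Kcnip2 to Kcnd2 differed by 0.13 on the log2 scale (exact permutation p = 0.371), Kcnj5 to Kcnj3 by 0.15 (p = 0.771), and Kcnq1 to Kcnh2 by 0.20 (p = 0.171). Without control hearts 2 and 3 these differences were 0.24, 0.47 and 0.23. The ratio of Kcnj11 to Abcc9, which is also a pericyte marker, differed by -0.56 (exact permutation p = 0.143). That difference was -0.28 without control heart 3 and -0.10 without control hearts 2 and 3. Control hearts 1, 2 and 3 stood at 0.544, 0.671 and 1.13, above the AAV-FGF17 hearts at 0.405 to 0.486, and control heart 4 at 0.394. Kcnj2 to Kcnj12, which encodes a second inward rectifier pore, differed by 0.46 (exact permutation p = 0.143) and by 0.08 without those hearts, with control heart 3 at 0.802.

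**Figure D4:**
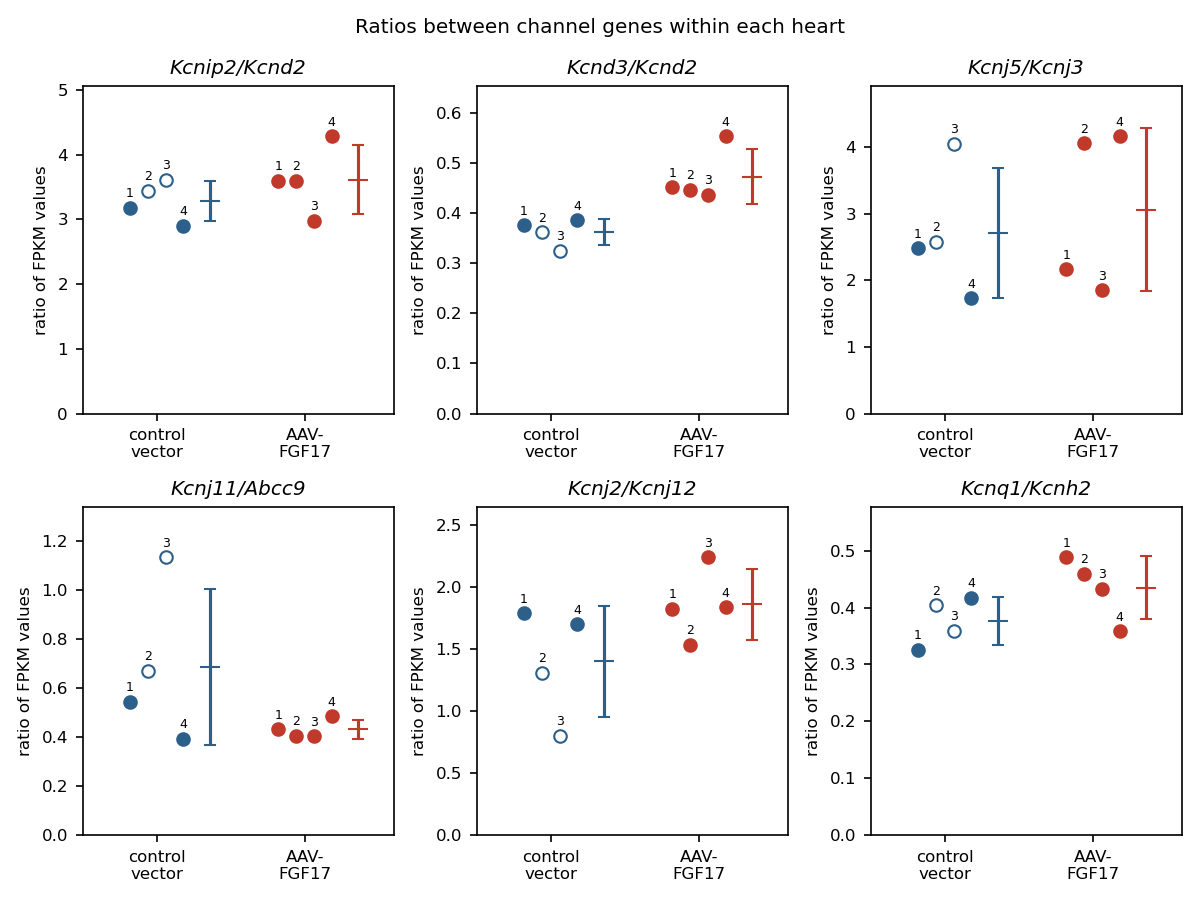
Ratio of the FPKM values of 2 channel genes within each heart, for 6 pairs, in control and AAV-FGF17 hearts. Numbers are the hearts as labelled, open circles are control hearts 2 and 3, and bars show the mean ± SD of 4 hearts. The groups do not overlap for Kcnd3/Kcnd2 and overlap for the other 5.

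Of a wider list of 53 other potassium channel genes, 24 were listed and 17 were abundant enough to test. Their median change was 0.05 relative to the median gene, with 10 above it and 7 below, and turned to -0.06 without control hearts 2 and 3. Of the 17, 0 were called, beside 0% of all tested genes each way. At an unadjusted limma p under 0.05, 2 of 17 were lower (Kcnk3 and Kcnj3) and 0 higher, beside 7.98% lower and 1.36% higher of all tested genes. Kcnk3, which encodes the acid-sensitive background channel TASK-1, measured 21.7, 22.8, 24.0 and 23.7 FPKM in AAV-FGF17 hearts and 26.0, 35.4, 52.0 and 26.0 FPKM in control hearts. All AAV-FGF17 hearts lay below all control hearts, a separation found in 4.64% of all tested genes. The change was -0.40 (-0.85 to 0.05, limma adjusted p = 0.495), and it was -0.14 (-0.33 to 0.04) without control hearts 2 and 3. Among the next by p, Kcne4, an accessory subunit gene, stood at -0.14, Kcng2, which encodes a modifying subunit, at -0.16, and Abcc8, which encodes the regulatory subunit SUR1, at -0.35, with none called. Abcc8 rested on control heart 3, at 6.54 FPKM against at most 2.36 in the other 7, and was -0.06 without that heart and without control hearts 2 and 3. Kcnt2, a sodium-activated channel gene, stood at -0.07 and Kcnn2, a calcium-activated one, at 0.02. Without control hearts 2 and 3, Kcng2 stood at -0.18, Kcnt2 at -0.23 and Kcnn2 at 0.10, and Kcne4 was not tested. Irx3 and Irx5, transcription factors that control Kcnd2 in the mouse ventricle, measured 6.08 ± 2.79 FPKM (n = 4) against 10.4 ± 5.32 and 2.12 ± 0.615 against 1.93 ± 1.10. Klf15, a regulator of Kcnip2 in mouse heart, stood at 8.21 ± 1.84 against 9.20 ± 2.81 FPKM. The control mean of Irx3 without hearts 2 and 3 was 6.59 FPKM, and its change went from -0.55 to -0.17. The same step reversed the other regulators. For Irx5, at 0.362 FPKM in control heart 3, the control mean became 2.21 FPKM and the change went from 0.29 to -0.04. For Klf15 the control mean became 7.22 FPKM and the change went from -0.01 to 0.17.

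Kcnj5 and Kcnj3 are known as atrial genes, so atrial markers were set beside the members. All 8 atrial markers were listed, none was at 0 and none was called. Their summed level was 576 to 1964 FPKM in AAV-FGF17 hearts and 1415 to 3190 FPKM in control hearts, and all 8 lay below the median gene in the comparison. As a mean of centred log2 values, AAV-FGF17 hearts 2 and 4 and control heart 2 lay at -1.45 to -0.63, and the other 5 hearts at 0.37 to 1.03. With each library's median removed, the same 3 hearts were the 3 lowest for Kcnj3 and for Kcnh2, and the 3 highest for Kcna5. These matches were picked after 13 genes had been looked at. For Kcnj5, 1 of the 3 was among its 3 lowest, as for Kcnj2, Kcnj11, Kcnip2 and Kcnj12. Kcnd2, Kcnq1 and Abcc9 had 2 of the 3 hearts among their 3 lowest, and Kcnd3 had 0. Correlations of the 13 genes with the atrial marker mean were computed after the values were seen. By adjusted rank correlation 2 passed, Kcnj3 and Kcnh2, and by adjusted Pearson correlation 0 passed. Since the hearts fell into sets of 3 and 5, they are not given as results, a choice made with those p-values known. Whether the amount of atrial tissue accounts for the channel genes' values was not tested.

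**Figure D5:**
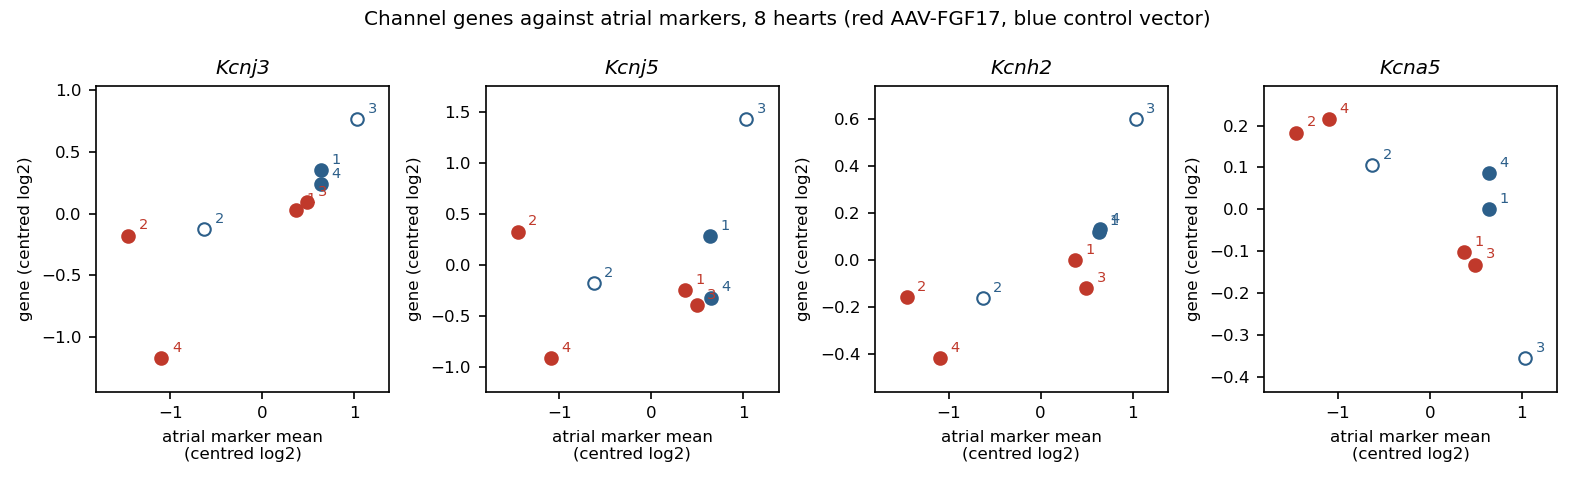
Level of Kcnj3, Kcnj5, Kcnh2 and Kcna5 in each heart against the mean of 8 atrial markers, both as log2(FPKM + 1) with the library's median removed and centred on the mean of 8 hearts; these 4 genes were chosen after their values were seen. Red points are AAV-FGF17 hearts and blue points control hearts, numbered as labelled. The 3 hearts between -1.45 and -0.63 on the horizontal axis are the lowest for Kcnj3 and Kcnh2 and the highest for Kcna5.

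Among 9768 genes, the patterns over 8 hearts most like that of Kcnj11, the most abundant member, were those of Lamb2 (Pearson r = 0.99) and Rhobtb2 (0.98). For Kcnh2, the member of smallest p, they were Spock2 (0.99) and Mtmr3 (0.98), and for Kcnj5, the member of largest change, Ubac1 (0.99) and Zfp512 (0.97). The points share 8 libraries, and these values are the highest of many, so no p is given.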

How the data were processed

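Trizol extraction and Illumina library preparation were used, per the labels' protocols. GRCm38 is the build in the submitters' processing notes, which also list StringTie 1.3.3, HISAT2 2.1.0, cutadapt 1.17 and FastQC 0.11.7. The authors deposited FPKM, 1 value for each gene in each library. Each listed gene averages at least 0.501 FPKM in 1 group. Depth is unknown, since low values showed no whole-read steps, so no count test was run. The labels do not state that samples are separate animals, so the spread behind a p-value may be partly technical.

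The 10025 genes whose mean reached 1 FPKM were compared as log2(FPKM + 1) by limma 3.58.1 (R 4.3.3), using a variance trend and Benjamini-Hochberg adjustment. For genes of low level this scale gives too small a fold change. P-values test the change as fitted. The fit was tested on simulated data. Ratios were compared with two-sided exact permutation tests. Coordinates of the 9 genes equal GENCODE M21.

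Some results, among them 1 partner gene with its ratio, are not reported here. Named genes were the 9 members, their partners in the ratios and the 6 wider-list genes of next smallest p. The members, lists and the choice to leave out control hearts 2 and 3 were made with earlier results of these data known. Correlations of 13 genes with the atrial marker mean were also computed, after the values were seen. By adjusted rank correlation 2 of the 13 passed, Kcnj3 and Kcnh2, and by adjusted Pearson correlation 0 passed. They are not given as results, because the hearts fell into sets of 3 and 5, a choice made with those p-values known. Correlations between pairs of members were also computed and are not given.

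Of the other cell types' markers, 0 were called. Listed were conduction (5 of 7), smooth muscle (5 of 5), endothelial (5 of 5), fibroblast (5 of 5) and pericyte markers (4 of 4). Macrophage (4 of 4), neuron and glia (3 of 6), adipocyte (4 of 4) and ventricular markers (4 of 4) were also listed. Since Fgf17 was not called either, this does not show that cell make-up was alike. Summed fibroblast markers were 139 to 171 FPKM in AAV-FGF17 hearts and 117 to 135 FPKM in control hearts. Endothelial sums were 92.5 to 120 FPKM against 122 to 158 FPKM, and the sums of the other lists overlapped between the groups.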

Additional observations from a re-analysis of the deposited data

Results flagged for a closer look

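For each gene or ratio looked at, the 4 values of a group formed a set. In 7 of 52 such sets, 1 heart lay far from the other 3. Chance gives about 1 in 20 for independent sets. These sets share the same hearts and are not independent, so the count is not a measure of an excess. In control heart 3 the values that lay apart were Kcnh2 at 15.1 FPKM, Kcnj12 at 9.48 FPKM and Abcc8 at 6.54 FPKM. In control heart 2 it was Kcnd3 at 2.16 FPKM. Among AAV-FGF17 hearts, Kcnj2 stood out at 8.91 FPKM in heart 3, Kcnj12 at 4.78 FPKM in heart 2, and the ratio of Kcnd3 to Kcnd2 at 0.554 in heart 4.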

How the results depend on the processing

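No member was called under any alternative run. Of 152 alternatives to the members' changes, 145 kept their direction and 7 reversed, with limma adjusted p from 0.289 to 0.996. Over all genes the count past the threshold was 0, with 136 higher and 800 lower at an unadjusted p under 0.05. It became 5 with array quality weights, 6 without control hearts 2 and 3, and 0 to 4 with each heart left out in turn. The unadjusted split was 430 higher and 403 lower after median-of-ratios scaling, and 462 and 318 after rescaling without mitochondrial genes. With the replicate block the count was 0 (134 higher and 819 lower unadjusted). Same-numbered hearts did not deviate together (correlations 0.01, 0.00, 0.02 and -0.11). Among the log2 changes that reversed, Kcnip2 was 0.066 with array quality weights, 0.082 without control hearts 2 and 3, and -0.14 to 0.0058 with a heart left out. Kcna5 was -0.048, -0.0044 and -0.022 to 0.14 under the same settings, and Kcnq1 -0.21 to 0.0099 with a heart left out. Abcc8 (-0.35) was 0.0080 with array quality weights, and Kcnt2 -0.16 to 0.0081 with a heart left out. Kcnn2 was -0.014 with a pseudocount of 0.1, -0.012 with median-of-ratios scaling and with control hearts 1 and 4 averaged (added after seeing the data), -0.020 without mitochondrial genes, and -0.038 to 0.059 with a heart left out. With a heart left out, Kcnj5/Kcnj3 ran from -0.045 to 0.36. Kcnd3 was not tested at a minimum of 3 FPKM, nor Kcne4 without control hearts 2 and 3. The unknown depth limits what can be said of the lowest genes.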
